A study of Mus musculus with 12 samples.

Results

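The transcripts of 5 genes, Fbxl17, C1qtnf7, Upp1, Arap3 and Serpinb1b, were followed in sorted sensory neurons from dorsal root ganglia (DRG) of adult mice. The genes were chosen by their level in these same libraries: all 5 lie higher in ganglia of spinal levels L6 and S1 (L6S1) than in ganglia of levels L3, L4 and L5 (L345). Their difference between levels is therefore described without a test. They are 5 of 41388 genes in the deposited tables, and 5 of 5 passed the filter on low counts that left 15281 genes to be tested. The study holds 12 RNA-seq libraries in 4 groups of 3, lettered A, B and C in male L345, male L6S1 and female L6S1, and B, C and D in female L345. All mice were C57BL/6 animals aged 3 months of the genotype RetFloxedEGFP / Scn10a tm2(cre)Jnw, in which Cre is made from the NaV1.8 sodium channel gene. Every group was heterozygous for the Ret knock-in, carried the Cre allele and was sorted for EGFP, which appears only after Cre has cut the floxed Ret allele. The sort thus selects Ret-expressing cells with a history of NaV1.8 expression, and no group lacks these alleles. Each library came from a pool of 2 to 8 mice and 12 to 32 ganglia. The labels disagree on the pool of male L345 C, with 5 mice in the pool size and 3 in the treatment protocol. They do not say whether the same mice supplied both levels.

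The L6 and S1 ganglia carry most afferents of the bladder, colon and genital organs, whereas the L3 to L5 ganglia mainly serve the hindlimb. The 5 genes belong to unrelated families. Fbxl17 encodes an F-box protein with leucine-rich repeats, the part of an SCF ubiquitin ligase that picks the substrate, and it takes apart wrongly paired BTB-domain dimers. C1qtnf7 encodes a secreted protein of the C1q and tumour necrosis factor superfamily. Upp1 encodes uridine phosphorylase, which splits uridine into uracil and a sugar phosphate and so links pyrimidine salvage to breakdown. Arap3 encodes a GTPase-activating protein for Arf proteins that responds to the lipid product of phosphoinositide 3-kinase. Serpinb1b encodes a clade B serpin, an intracellular protein of the serine protease inhibitor fold, and is a mouse paralog of the leukocyte elastase inhibitor gene Serpinb1a.

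The sequences upstream of the start sites are shown because genes that move together can be compared at their promoters. The reference table of RefSeq promoters (GRCm38.p6) held 4 of the 5 genes, and the 250 bases before the start are printed for each of them, 5′ to 3′ on the strand of the gene. They lie at chr17:63500581-63500830 on the minus strand for Fbxl17, and at chr5:43515319-43515568 for C1qtnf7, chr11:9117853-9118102 for Upp1 and chr13:33083853-33084102 for Serpinb1b, all 3 on the plus strand. Capitals mark matches to the motifs searched.
Fbxl17: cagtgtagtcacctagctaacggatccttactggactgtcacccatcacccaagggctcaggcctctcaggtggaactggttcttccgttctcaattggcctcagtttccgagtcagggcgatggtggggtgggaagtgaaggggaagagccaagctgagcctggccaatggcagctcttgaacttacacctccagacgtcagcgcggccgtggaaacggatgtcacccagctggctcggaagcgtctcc
C1qtnf7: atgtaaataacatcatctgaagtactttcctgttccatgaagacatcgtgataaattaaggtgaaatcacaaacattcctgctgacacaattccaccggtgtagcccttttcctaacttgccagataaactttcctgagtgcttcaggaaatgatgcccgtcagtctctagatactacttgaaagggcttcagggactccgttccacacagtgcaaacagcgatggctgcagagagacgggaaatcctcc
Upp1: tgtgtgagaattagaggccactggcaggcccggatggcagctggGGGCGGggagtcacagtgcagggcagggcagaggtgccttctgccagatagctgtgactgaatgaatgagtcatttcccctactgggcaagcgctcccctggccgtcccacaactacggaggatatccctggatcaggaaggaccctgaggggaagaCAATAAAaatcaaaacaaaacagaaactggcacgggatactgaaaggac
Serpinb1b: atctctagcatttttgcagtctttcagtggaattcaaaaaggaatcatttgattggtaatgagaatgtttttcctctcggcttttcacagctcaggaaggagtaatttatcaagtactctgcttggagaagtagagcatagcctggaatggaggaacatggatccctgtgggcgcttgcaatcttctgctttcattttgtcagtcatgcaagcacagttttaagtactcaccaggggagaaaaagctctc

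Both strands were searched for the TATA box TATAAA, the GC box GGGCGG, the E-box CACGTG, the cAMP response element TGACGTCA, the palindromic estrogen response element and its part GGTCA, the Pbx-Hox motif TGATTNAT and the caudal Hox motif TTTATNG. Only the Upp1 window held a match. Its GC box begins at base -206 from the start and is a motif that 32.74% of 32851 promoter windows of this length hold. Its caudal Hox match begins at base -49, on the reverse strand, and 9.81% of windows hold that motif. In the other 3 windows none of these letters occurred, where TATAAA occurs in 12.37% of all windows, CACGTG in 6.02%, TGACGTCA in 1.55%, TGATTNAT in 2.82%, GGTCA in 35.24% and the palindromic element in 0.06%. The windows also differed in base composition. Fbxl17 had 58.4% GC with 11 CpG sites, Upp1 55.6% with 6, C1qtnf7 44.8% with 6 and Serpinb1b 42.0% with 2, beside 53.2% GC and a median of 6 CpG sites over all windows. The start used for Fbxl17 lies 563 bases from the gene start in the deposited tables and that of Serpinb1b lies 22 bases away, while those of C1qtnf7 and Upp1 coincide. No promoter sequence is shown for Arap3.

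Total counts per library ran from 16176436 to 26694404, so that 3 counts, the upper limit that a count of 0 allows, correspond to 0.112 to 0.185 CPM (counts scaled to a common library total). The female L6S1 libraries differed most among themselves, with Spearman correlations of 0.958 to 0.963 beside 0.986 to 0.993 within each of the other groups. By Xist and the Y-linked genes, the sex label held in 12 of 12 libraries. The titles of 4 libraries take a second form, namely female L345 D, male L6S1 C and the B and C libraries of female L6S1. Sensory neuron markers such as Prph, Scn10a and Tubb3 had counts in every library, 10 of 10, and their summed level was 11560 to 13710 CPM at L345 and 12640 to 15720 CPM at L6S1. Single markers differed in direction. Tubb3, the largest part of the sum, had medians of 4499 CPM at L345 and 5748 CPM at L6S1. The medians of Scn10a were 607 and 419 CPM and those of Scn11a 716 and 499 CPM. The p-values measure the spread between pools. In bulk libraries, more cells of a type that expresses a gene and more RNA per cell cannot be told apart.

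All 5 genes had every L6S1 library above every L345 library, an order that 2.02% of all tested genes share. Called genes, those with an adjusted p under 0.05 by edgeR's quasi-likelihood test, made up 2.33% of the 15281 tested genes in this comparison, and 1.45% were called higher at L6S1. The members were chosen from this comparison, so nothing is read from their place in it. Their fold changes over all 15281 genes ranked 21 for Arap3, 78 for C1qtnf7, 83 for Upp1, 123 for Fbxl17 and 124 for Serpinb1b. At the inner edge of the set, the lowest L6S1 library stood 1.41 times above the highest L345 library for Serpinb1b and 3.6 times above it for Arap3.

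**Figure D1:**
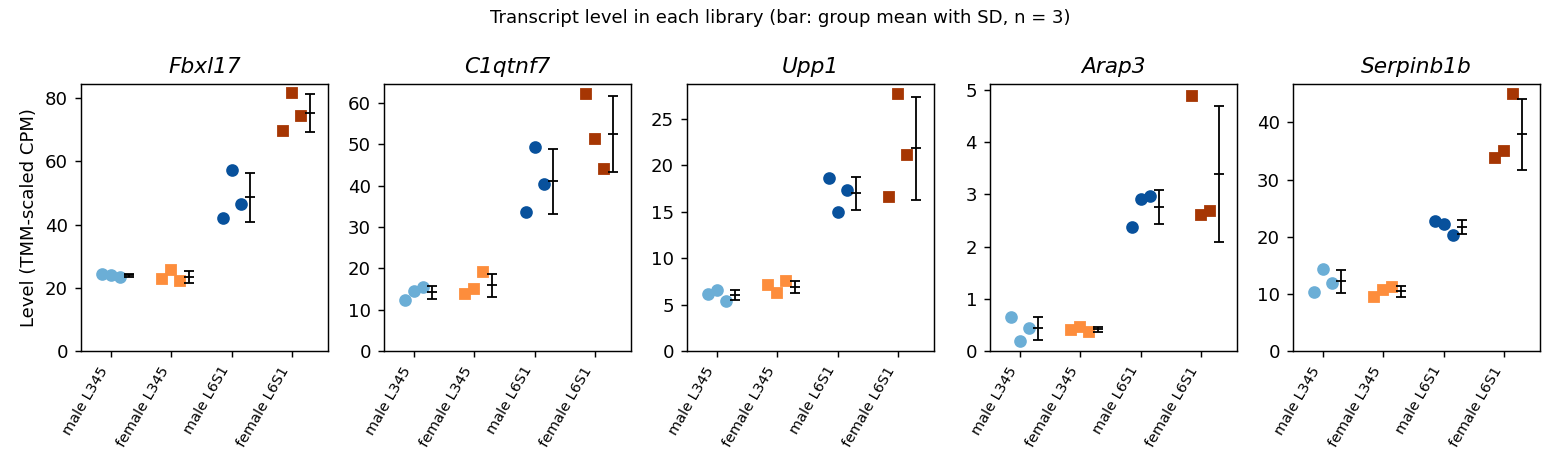
Each panel plots 1 gene, with its TMM-scaled CPM on a linear axis from 0 and 1 point per library in the 4 groups of 3; black bars give the group mean with its SD. For all 5 genes every L6S1 point lies above every L345 point, and for Fbxl17 and Serpinb1b every female L6S1 point also lies above every male L6S1 point.

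Fbxl17 (ENSMUSG00000023965) spans 63057452 to 63500017 on the minus strand of chromosome 17 in the deposited tables (GRCm38.p2), with 14 exon blocks. It had 24.4, 24.1 and 23.5 CPM in male L345 A, B and C, against 22.9, 25.8 and 22.1 CPM in female L345 B, C and D. It had 42.2, 57.2 and 46.6 CPM in male L6S1 A, B and C, and 69.6, 81.6 and 74.3 CPM in female L6S1 A, B and C. The L345 libraries were almost level with each other, while the L6S1 libraries split by sex without overlap. The means were 23.8 ± 1.28 CPM over the L345 and 61.9 ± 15.8 CPM over the L6S1 libraries (SD, n = 6), with a fitted log2 fold change of 1.35 ± 0.12 (SE). Within males it was 1.02 ± 0.17 and within females 1.67 ± 0.17.

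C1qtnf7 (ENSMUSG00000061535) spans 43515569 to 43618817 on the plus strand of chromosome 5, with 5 exon blocks. Male L345 A, B and C had 12.5, 14.6 and 15.5 CPM, and female L345 B, C and D had 13.8, 14.9 and 19.2 CPM. Male L6S1 A, B and C had 33.5, 49.3 and 40.3 CPM, and female L6S1 A, B and C had 62.2, 51.2 and 44.1 CPM. Here the sexes overlapped at both levels. The mean was 15.1 ± 2.25 CPM over the L345 and 46.8 ± 9.87 CPM over the L6S1 libraries (SD, n = 6), and the fitted log2 fold change was 1.62 ± 0.15, with 1.53 ± 0.21 in males and 1.72 ± 0.21 in females.

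Upp1 (ENSMUSG00000020407) spans 9118103 to 9136170 on the plus strand of chromosome 11, with 11 exon blocks. Its level was 6.13, 6.55 and 5.43 CPM in male L345 A, B and C, against 7.09, 6.25 and 7.5 CPM in female L345 B, C and D. At L6S1 it was 18.6, 14.98 and 17.3 CPM in male A, B and C, and 16.6, 27.6 and 21.1 CPM in female A, B and C. Female L6S1 B was the highest library and female L6S1 A lay within the male range. The mean was 6.49 ± 0.733 CPM over the L345 and 19.4 ± 4.54 CPM over the L6S1 libraries (SD, n = 6). The fitted log2 fold change of 1.57 ± 0.15 was 1.49 ± 0.21 in males and 1.65 ± 0.21 in females.

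Serpinb1b (ENSMUSG00000051029) spans 33084125 to 33094380 on the plus strand of chromosome 13, with 7 exon blocks. Its level was 10.4, 14.4 and 11.9 CPM in male L345 A, B and C, against 9.41, 10.8 and 11.2 CPM in female L345 B, C and D. At L6S1 it was 22.7, 22.2 and 20.2 CPM in male A, B and C, and 33.8, 34.9 and 45.0 CPM in female A, B and C. As for Fbxl17, the sexes separated at L6S1 and overlapped at L345. The mean was 11.3 ± 1.7 CPM over the L345 and 29.8 ± 9.72 CPM over the L6S1 libraries (SD, n = 6). Its fitted log2 fold change of 1.34 ± 0.13 was 0.83 ± 0.19 in males and 1.86 ± 0.19 in females.

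Arap3 (ENSMUSG00000024451) spans 37972624 to 37997574 on the minus strand of chromosome 18, with 33 exon blocks, and was the rarest of the 5 transcripts. It rested on 4 to 14 counts in each L345 library and 60 to 80 counts in each L6S1 library. Male L345 A, B and C had 0.661, 0.203 and 0.442 CPM, and female L345 B, C and D had 0.412, 0.469 and 0.371 CPM, all above the level of 3 counts. Male L6S1 A, B and C had 2.38, 2.92 and 2.97 CPM, and female L6S1 A, B and C had 4.88, 2.61 and 2.68 CPM. The smallest library, female L6S1 A, stood highest, and the other 5 L6S1 libraries lay close together. The mean was 0.426 ± 0.148 CPM over the L345 and 3.07 ± 0.911 CPM over the L6S1 libraries (SD, n = 6). The fitted log2 fold change of 2.82 ± 0.28 was 2.64 ± 0.4 in males and 3.00 ± 0.39 in females.

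On a scale that allows levels to be compared between genes, reads scaled to library total and to gene length (RPKM, from each library's own total), Serpinb1b stood highest at both levels. Its mean was 6.74 RPKM at L345 and 17.3 RPKM at L6S1, above 63.8% and 80.0% of tested genes. At L345, Fbxl17 followed with a mean of 4.35 RPKM (4.03 to 4.71), C1qtnf7 with 3.68 RPKM (3.09 to 4.67) and Upp1 with 3.34 RPKM (2.77 to 3.86). The ranges of these 3 neighbours in the order overlap. At L6S1, C1qtnf7 with 11.2 RPKM and Fbxl17 with 11.1 RPKM stood side by side ahead of Upp1 with 9.75 RPKM, again with overlapping ranges. Arap3 lay far below, at 0.0826 RPKM at L345 and 0.584 RPKM at L6S1, above 2.0% and 20.7% of tested genes. The difference between levels thus took 4 genes from the middle of the distribution into its upper part, whereas Arap3 stayed low.

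The level difference was also computed without the libraries that stand apart. In the 8 libraries whose titles take the first form, the log2 fold change was 1.27 ± 0.12 for Fbxl17, 1.82 ± 0.14 for C1qtnf7, 1.38 ± 0.15 for Upp1, 3.00 ± 0.31 for Arap3 and 1.30 ± 0.14 for Serpinb1b. Without female L6S1 B and C the values were 1.28, 1.74, 1.37, 3.08 and 1.25 in the same order. No such fit was made within the second title form, whose only L345 library is female.

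Sex was not used to choose the genes, so it was tested. Over both levels, none of the 5 genes was called between females and males by edgeR, DESeq2 or limma-voom. Over all tested genes edgeR called 0.0589%, DESeq2 31 genes and limma-voom 10. The log2 difference, female minus male, was 0.30 ± 0.12 for Fbxl17 and 0.29 ± 0.13 for Serpinb1b (SE; edgeR adjusted p = 0.764 for each, unadjusted p = 0.0207 and 0.045). It was 0.26 ± 0.14 for C1qtnf7, 0.28 ± 0.15 for Upp1 and 0.11 ± 0.28 for Arap3, with edgeR adjusted p of 0.764, 0.764 and 0.951. At L345 the female mean was above the male mean for 2 of the 5 genes, C1qtnf7 and Upp1. By the same 3 tools no member was called there (edgeR adjusted p = 1 for each, 0 with an unadjusted p under 0.05). Of all tested genes edgeR called 0.0393% there, and DESeq2 and limma-voom 7 genes each. At L6S1 the female mean was above the male mean for 5 of 5, a count not set against all tested genes. Of the 3 female L6S1 libraries, 1 lay above the male mean for Arap3, 2 for Upp1 and all 3 for the other genes.

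The female and male L6S1 libraries did not overlap for Fbxl17 and Serpinb1b, an order found in 5.97% of tested genes. Fbxl17 was 1.54 times as high in female as in male L6S1, 75.2 ± 6.02 against 48.7 ± 7.7 CPM (SD, n = 3). Serpinb1b was 1.75 times as high, 37.9 against 21.7 CPM. By edgeR these differences did not pass, with log2 values of 0.63 ± 0.16 (adjusted p = 0.258, unadjusted p = 0.0017) and 0.80 ± 0.19 (adjusted p = 0.236, unadjusted p = 0.000651), where 0.072% of tested genes were called. With DESeq2 they did, at adjusted p = 0.0283 and 0.0116, where DESeq2 called 0.821% of genes, and with limma-voom they did not, at 0.0783 for each. They also passed in edgeR without female L6S1 A, at adjusted p = 0.0163 and 0.00745, in a fit that called 2060 genes (13.1%) where the fit of all libraries called 11. Over all alternatives the adjusted p ran from 0.0163 to 0.941 for Fbxl17 and from 0.00745 to 0.941 for Serpinb1b. Within each title form the order of the sexes was the same for both genes. Fbxl17 in the first form had 69.6 CPM in female L6S1 A against 42.2 and 57.2 CPM in male L6S1 A and B, and in the second 81.6 and 74.3 CPM in female B and C against 46.6 CPM in male C. Serpinb1b had 33.8 against 22.7 and 22.2 CPM, and 34.9 and 45.0 against 20.2 CPM. The summed level of the fibroblast markers separated the sexes at L6S1 in the same way, with 283.3 to 322 CPM in females and 123.8 to 182.6 CPM in males. Most of that sum is the decorin gene Dcn. The 7 other markers summed to 9.15 to 14.2 CPM in all L6S1 libraries but female L6S1 C, which had 71.5 CPM. The part of these transcripts in the sex differences of Fbxl17 and Serpinb1b was not tested.

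For the other 3 genes the sex difference within L6S1 was smaller against its error. It was 0.35 ± 0.2 for C1qtnf7, 0.36 ± 0.21 for Upp1 and 0.29 ± 0.34 for Arap3 (log2 ± SE, edgeR adjusted p = 0.454, 0.451 and 0.736). For Arap3 the difference rests on female L6S1 A, since it became -0.06 without that library. For Upp1 it rests on female L6S1 B and C, since it became -0.03 without them.

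Whether the level difference itself differed between the sexes was tested as an interaction, females minus males. By edgeR 0 of 15281 genes passed (0.0%), while 714 had an unadjusted p under 0.05. DESeq2 called 2 genes, limma-voom 0, and edgeR with no filter on low counts 3. Serpinb1b had an interaction of 1.03 ± 0.26 (log2 ± SE, edgeR adjusted p = 0.871, unadjusted p = 0.00157) and Fbxl17 one of 0.65 ± 0.23 (adjusted p = 0.871, unadjusted p = 0.0133). Those of Arap3, C1qtnf7 and Upp1 were 0.36 ± 0.56, 0.19 ± 0.29 and 0.16 ± 0.3, with edgeR adjusted p of 0.944, 0.943 and 0.96. Without female L6S1 A, Serpinb1b passed, at 1.10 ± 0.26 with edgeR adjusted p = 0.0234, in a fit with 817 calls (5.21%). Over all alternatives its adjusted p ran from 0.0234 to 1.

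**Figure D2:**
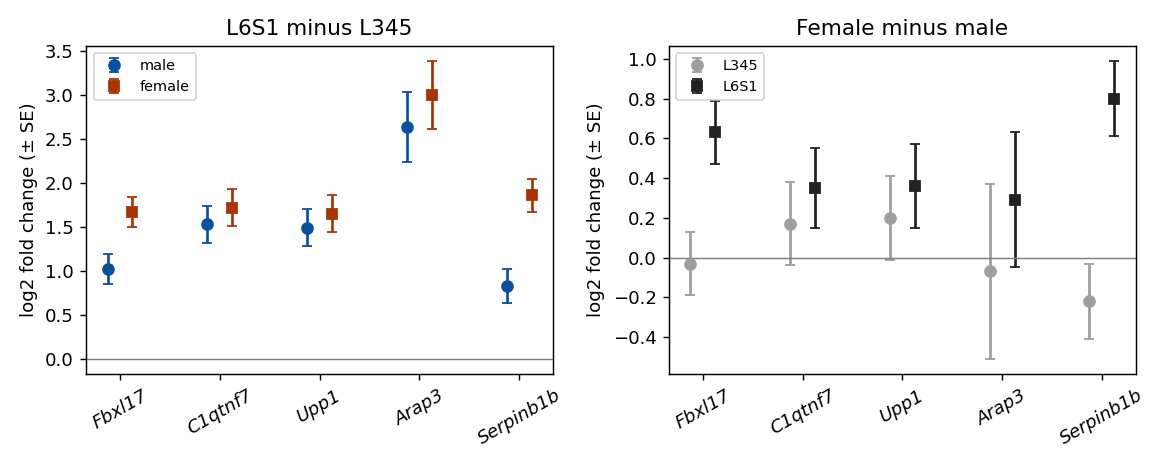
Fitted log2 fold changes with their SE as bars: on the left L6S1 minus L345 within males (circles) and within females (squares), on the right female minus male within L345 (circles) and within L6S1 (squares). The female and male level differences lie apart for Fbxl17 (1.67 and 1.02) and Serpinb1b (1.86 and 0.83) and have overlapping SE bars for C1qtnf7, Upp1 and Arap3.

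Genes that work with each member were then examined by lists that leave the member out. Over the 5 lists, 101 genes were tested, of which 3 were called higher and 2 lower at L6S1, 4.95% beside the 2.33% of all genes. For the lists with no call, counts by other thresholds are given too, and are to be read against 26.6% of all tested genes with an unadjusted edgeR p under 0.05 and 10.8% called by DESeq2. The median log2 fold change of the list genes was -0.13, and that of all tested genes was -0.06.

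None of the 26 tested genes of the SCF ubiquitin ligase list was called by edgeR or limma-voom, and their median was -0.23; 6 had an unadjusted edgeR p under 0.05 and DESeq2 called 2, shares no higher than over all genes. Per kilobase, the core subunit genes Skp1a, Rbx1 and Cul1 had higher means than Fbxl17 itself. At L6S1 they had 1805, 282 and 28.6 RPKM, beside 11.1 RPKM for Fbxl17. Skp1a, the adaptor that holds the F-box, had 4181 ± 300.5 CPM in the L345 libraries and 4038 ± 498 CPM in those of L6S1 (log2 fold change -0.05 ± 0.11, edgeR adjusted p = 0.784). The scaffold gene Cul1 had 137.3 and 117 CPM (-0.23 ± 0.17, edgeR adjusted p = 0.369), and the RING subunit gene Rbx1 had 368 and 472 CPM (0.35 ± 0.12, edgeR adjusted p = 0.0995).

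In the C1q and tumour necrosis factor superfamily, 2 of 13 tested genes were called higher and 1 lower, with a median of -0.02. The called genes are all of the cerebellin and C1q-like subgroup, secreted proteins known from synapses. Cbln1, the gene of cerebellin, which bridges neurexins and glutamate receptors of the delta type, rose from 0.868 ± 0.254 to 3.20 ± 0.694 CPM (SD, n = 6) or by 1.87 ± 0.24 in log2 (edgeR adjusted p = 0.000911). Every L6S1 library stood above every L345 library for Cbln1. Its relative Cbln4 rose from 0.165 ± 0.126 CPM, a level near 3 counts with libraries at 0, to 1.54 ± 1.22 CPM (2.83 ± 0.64, edgeR adjusted p = 0.0369), and its fitted fold change depends on the prior count. For Cbln4, 5 of 6 L6S1 libraries stood above the highest L345 library, and the lowest L6S1 library had 0.0397 CPM. C1ql4 fell from 2.44 ± 0.572 to 1.02 ± 0.429 CPM (-1.27 ± 0.29, edgeR adjusted p = 0.0381). With 1 library left out, Cbln1 stayed called in 12 of 12 fits, Cbln4 in 4 and C1ql4 in 3.

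Among 26 tested genes of pyrimidine salvage and breakdown, 1 was called lower and none higher, with a median of -0.03. Uck2, the gene of a uridine-cytidine kinase, which phosphorylates the same nucleoside that Upp1 splits, fell from 10.2 ± 1.6 to 5.82 ± 0.951 CPM (log2 fold change -0.81 ± 0.15, edgeR adjusted p = 0.0174). All L6S1 libraries, at 4.90 to 7.45 CPM, lay below all L345 libraries, at 8.1 to 12.3 CPM. The Uck2 call held in 8 of 12 fits that left out 1 library, and without female L6S1 B and C the adjusted p was 0.0855. Upp2, the paralog of Upp1, had 3.82 and 3.72 CPM (-0.08 ± 0.21, edgeR adjusted p = 0.823).

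None of 27 tested genes of the Arf GTPase-activating proteins, their GTPases and partners was called by edgeR or limma-voom, and their median was -0.23; 8 had an unadjusted edgeR p under 0.05 and DESeq2 called 3, shares close to those over all genes. Arap1, a paralog of Arap3, was the more abundant gene, with 55.9 ± 4.36 CPM in L345 and 67.4 ± 20.2 CPM in L6S1 libraries (log2 fold change 0.27 ± 0.17, edgeR adjusted p = 0.316). Arap2 had 4.43 and 3.76 CPM (-0.24 ± 0.33, edgeR adjusted p = 0.651). Per kilobase, Arap3 reached 0.584 RPKM at L6S1, beside 8.78 RPKM for Arap1 and 0.428 RPKM for Arap2.

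Of the clade B serpins and leukocyte proteases, 9 of 29 genes had enough counts to be tested, and 1 was called. The median log2 fold change of the 9 genes was 0.31, beside -0.06 over all tested genes. Of the 9, 7 lay above 0, as did 6806 of all 15281 tested genes. Serpinb1a, the closest paralog of Serpinb1b, rose from 37.9 ± 7.18 to 63.0 ± 16.7 CPM (SD, n = 6) or by 0.72 ± 0.17 in log2 (edgeR adjusted p = 0.0381). It stood above the highest L345 library in 5 of 6 L6S1 libraries. Its call held in 4 of 12 fits that left out 1 library. The other paralog, Serpinb1c, had 0 to 7 counts per library and was not tested. Elane and Ctsg, genes of the neutrophil proteases neutrophil elastase and cathepsin G, had 3 and 2 counts in the 12 libraries together. The paralogs share sequence: of 1877 windows of 50 bases in the Serpinb1b transcripts, 44 (2.34%) also occur in Serpinb1a and 41 (2.18%) in Serpinb1c. The labels do not say how such reads were counted.

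**Figure D3:**
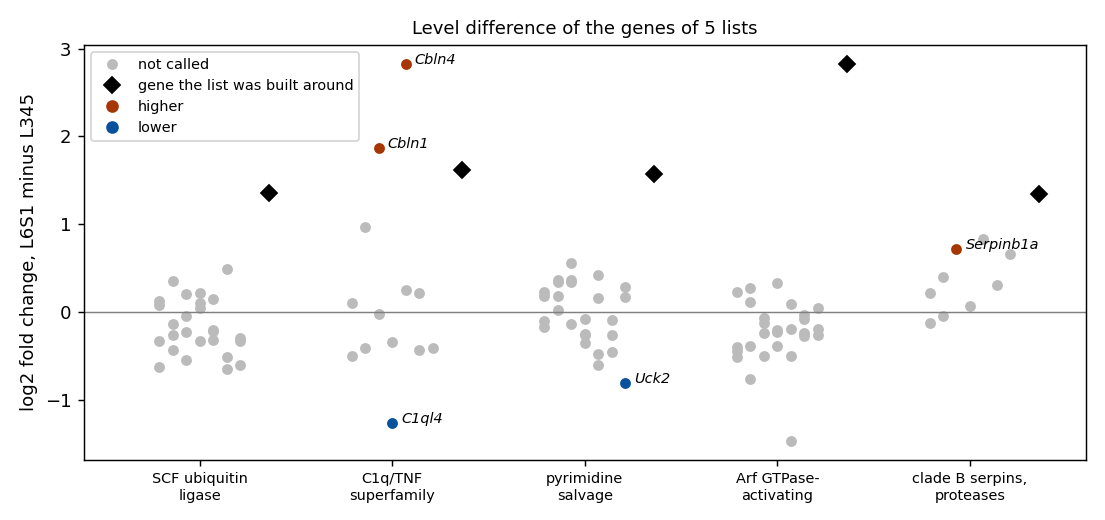
Each point is a tested gene of 1 of the 5 lists, with its log2 fold change, L6S1 minus L345; coloured points are the 5 called genes, grey points were not called, and diamonds are the members, which were chosen by this contrast and not tested. Called genes occur in 3 lists, and each member lies above all tested genes of its list except C1qtnf7, which Cbln1 and Cbln4 exceed.

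Neighbouring genes on the chromosomes were not called. The nearest tested gene on either side of each member gave 10 genes, of which 0 passed by edgeR and by limma-voom, 4 had an unadjusted p under 0.05 and DESeq2 called 2, beside 26.6% and 10.8% over all tested genes. They lay 2.8 to 785.4 kb from the member, since genes that were not tested were passed over. Fchsd1, whose end lies 2850 bases from Arap3, stood at 9.26 ± 2.06 CPM (L345) and 10.7 ± 3.25 CPM (L6S1) (log2 fold change 0.21 ± 0.22, edgeR adjusted p = 0.561). On its other side Pcdh1, a protocadherin gene, had -0.56 ± 0.18 (edgeR adjusted p = 0.0875). The serpin genes Serpinb9 and Serpinb6c, 66.2 and 785.4 kb from Serpinb1b, had 0.40 ± 0.14 and 0.66 ± 0.23 (edgeR adjusted p = 0.101 and 0.102). Efna5 and Fer flank Fbxl17, Cpeb2 and Cc2d2a flank C1qtnf7, and Gm11992 and Eif3s6-ps1 flank Upp1, with log2 fold changes between -0.50 and 0.34. Of the genes annotated within the members' spans, those listed in the deposited tables held few reads; Gm43022 and Gm43023, inside C1qtnf7, were not analysed here. The most, 50 counts in the 12 libraries together, were those of 4930405O22Rik inside Fbxl17, and the antisense gene Gm15866 inside C1qtnf7 had 11.

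Markers of other cells were measured beside the members. The largest sum was that of satellite glia and Schwann cell markers, with 1480 to 1985 CPM at L345 and 1004 to 1985 CPM at L6S1. Its largest part by median was Apoe, with 937 CPM at L345 and 894 CPM at L6S1. Fibroblast markers summed to 70.3 to 97.7 CPM at L345 and 123.8 to 322 CPM at L6S1, above all L345 libraries in 6 of 6. Most of that sum is Dcn, the decorin gene, which was called (log2 fold change 1.67 ± 0.14, edgeR adjusted p = 1.91e-05); without it the 7 other markers summed to 12.3 to 17.6 CPM at L345 and 9.15 to 14.2 CPM in 5 of the 6 L6S1 libraries, with 71.5 CPM in female L6S1 C. Macrophage markers summed to 3.8 to 5.73 CPM at L345 and 6.21 to 9.04 CPM at L6S1 except in female L6S1 C, which had 64.3 CPM, and T cell markers to 1.95 to 3.32 and 3.58 to 9.04 CPM, both higher in 6 of 6 L6S1 libraries. In each list 4 markers were at 0 in 6 or more libraries, among them C1qa, Adgre1 and Cx3cr1 for macrophages and Cd3e, Cd3d, Cd3g and Cd8a for T cells. The called members of these lists were C1qb and Trac. Their medians at L345 and L6S1 were 1.005 and 3.78 CPM for C1qb, and 0.818 and 4.09 CPM for Trac. Those of the T cell marker Cd4, which was not called, were 1.58 and 1.44 CPM. The other tested macrophage markers, Csf1r, Aif1, Lyz2 and Mrc1, were not called either. Of the sensory neuron markers 1 of 10 was called, Rbfox3, which was lower (-0.79 ± 0.18, edgeR adjusted p = 0.0368). The part of the glial, fibroblast, macrophage and T cell transcripts in the members' levels was not tested.

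**Figure D4:**
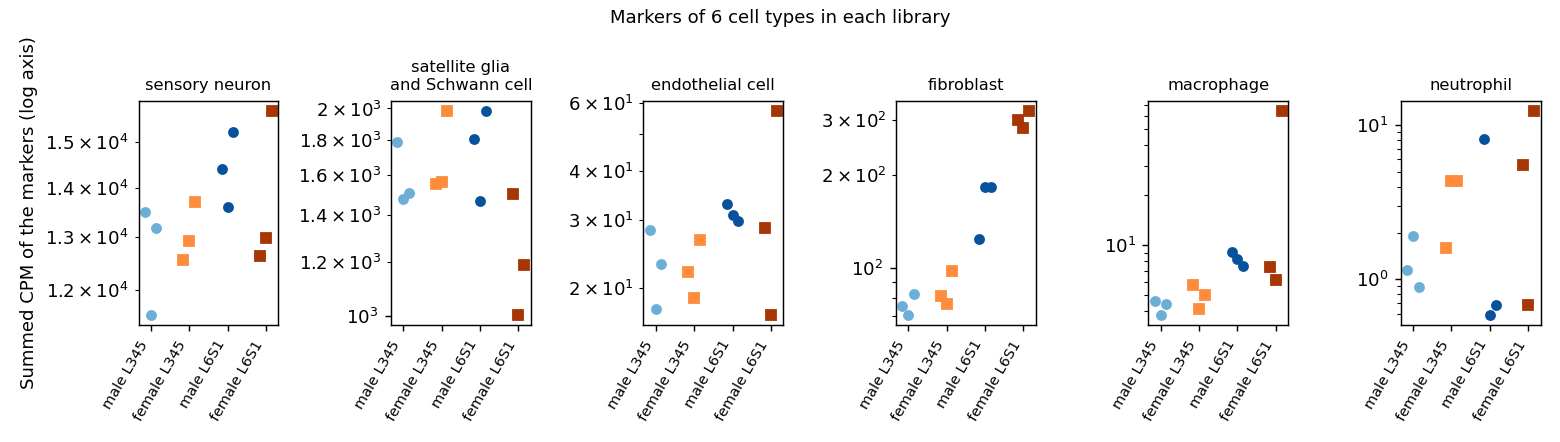
Summed CPM of the markers of 6 cell types, on log axes that differ between panels, with 1 point per library. Female L6S1 C has the highest sum for sensory neurons (15720 CPM), endothelial cells (57.3 CPM), fibroblasts (322 CPM), macrophages (64.3 CPM) and neutrophils (12.4 CPM).

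Arap3 is also known from endothelial cells, so their markers were read beside it. Their sum was 17.7 to 28.2 CPM at L345 and above the highest of these libraries in 5 of 6 L6S1 libraries. Its largest parts by median were Egfl7, with 13.85 CPM at L345 and 16.97 CPM at L6S1, and Esam, with 4.865 and 7.488 CPM. Other markers were rare, with medians of 0.545 and 0.873 CPM for Pecam1 and 0.499 and 0.365 CPM for Flt1. None of the 8 tested endothelial markers was called by edgeR or limma-voom. Of these markers 3 had an unadjusted edgeR p under 0.05 and DESeq2 called 2, beside 26.6% and 10.8% over all tested genes. Male L6S1 A, B and C had endothelial sums of 33.0, 30.8 and 29.7 CPM, and female L6S1 A, B and C had 28.6, 17.0 and 57.3 CPM. For Serpinb1b, neutrophil markers are the related list. They summed to 0.887 to 4.35 CPM at L345, and the L6S1 libraries lay on both sides of that range. Male L6S1 A, female L6S1 A and female L6S1 C were above it with 8.15, 5.5 and 12.4 CPM, and male L6S1 B, male L6S1 C and female L6S1 B below it with 0.587, 0.68 and 0.685 CPM. The part of endothelial and neutrophil transcripts in the levels of Arap3 and Serpinb1b was not tested. Without female L6S1 C the log2 fold change was 1.29 ± 0.13 for Serpinb1b and 2.90 ± 0.28 for Arap3.

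The genes with the most similar pattern to each member were sought among 12830 genes that averaged 1 CPM or more, by Pearson's r of log2 CPM over the 12 libraries. These libraries share depth, level and sex, and r holds the level difference by which the members were chosen. For Fbxl17 the closest were Dcn (r = 0.969), Qpct (0.966), the gene of glutaminyl cyclase, and Minar2 (0.966). C1qtnf7 was closest to Qpct (0.981), the estrogen receptor alpha gene Esr1 (0.975) and the nicotinic receptor subunit gene Chrna3 (0.972). Upp1 was closest to Ggact (0.983), the aldose reductase gene Akr1b3 (0.966) and the glutathione transferase gene Gsta4 (0.963). Arap3 was closest to the long non-coding RNA Hotair (0.967), the adhesion gene Negr1 (0.961) and the homeobox gene Hoxd10 (0.961). Serpinb1b was closest to Fbxl17 (0.961), Itm2a (0.958) and Akr1b3 (0.957). Most of these genes appear for 1 member alone, and Fbxl17 and Serpinb1b are the only pair of members in which one is among the 3 genes closest to the other.

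When the group means were taken out, the likeness among members went too. Over the 12 libraries the 10 pairs of members had r between 0.85 and 0.96. For deviations from the 4 group means, r ran from -0.75 (Arap3 and Serpinb1b) to 0.22 (Fbxl17 and C1qtnf7), and that of Fbxl17 and Serpinb1b was 0.00. By these deviations the closest genes were Tmem263, Raver2 and Aldh1l1 for Fbxl17 (r from 0.885 to 0.894), Il17ra, Pcp4 and the potassium channel gene Kcnk2 for C1qtnf7 (0.889 to 0.921), Cyp2j12, Gm5560 and Ppih for Upp1 (0.958 to 0.967), Natd1, Orai2 and Mapt for Arap3 (0.908 to 0.911), and Cxcl1, Ntan1 and Klf2 for Serpinb1b (0.916 to 0.935). Of these 15 genes, Kcnk2 alone was called between levels (log2 fold change 1.51 ± 0.17, edgeR adjusted p = 0.000295). With 12830 genes searched and 8 residual degrees of freedom, a high r can occur without a link, and none was tested. Raver2, Aldh1l1 and Klf2 were also rare, with L345 means of 1.335, 1.299 and 1.041 CPM.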

How the data were processed

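RNA of EGFP-sorted DRG neurons was sequenced in 12 libraries. The deposited tables hold counts, CPM and RPKM per Ensembl gene, made with Subread and featureCounts 1.4.5 on GRCm38.p2, per the submitters' processing notes. Not given in the sources used here: strand setting, annotation release. The deposited CPM is the count scaled to the table's total, and the deposited RPKM is that value per kilobase. Only counts were tested.

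Symbols came from GENCODE M21 for 40254 genes (97.3%). Counts were fitted with edgeR 4.0.16 (R 4.3.3; TMM, filterByExpr, 1 mean per group, 8 residual degrees of freedom, robust quasi-likelihood) and adjusted by Benjamini-Hochberg over 15281 genes, with calls at an adjusted p under 0.05. Printed CPM are TMM-scaled except marker sums and marker medians. The contrasts were L6S1 minus L345, female minus male, and their interaction. The code was tested on simulated data. DESeq2 1.42.0, limma-voom (limma 3.58.1), other scaling, filters, offsets, a term for title form and omitted libraries were alternatives.

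The members and the gene lists were chosen with earlier results of these data known. Named genes were the members, called list genes, closest paralogs, SCF core genes, nearest tested neighbours, the 3 genes most like each member, and markers of cell types whose sums differ. Elane, Ctsg, sensory neuron markers and genes within the members' spans were named after their values were seen.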

Additional observations from a re-analysis of the deposited data

How the results depend on the processing

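All 5 level differences kept their sign under all 22 alternatives, from 1.27 to 1.39 (log2) for Fbxl17, 1.55 to 1.82 for C1qtnf7, 1.37 to 1.65 for Upp1, 2.64 to 3.08 for Arap3 and 1.23 to 1.41 for Serpinb1b. Because the genes were chosen by this difference in the same libraries, the kept sign is no test of it. Counts of calls moved more, and the cause was not tested. Level calls, higher and lower, were 952 and 566 with DESeq2, 471 and 370 with no filter, 94 and 31 with a term for title form, 435 and 288 with length and GC offsets, and 113 and 24 without female L6S1 B and C; with the first title form only, 288 were lower. Sex calls were 17 and 14 with DESeq2 and 12 and 12 with no filter; 4 were lower with at least 1 CPM in at least 6 libraries, and 1 was higher with the title-form term, the offsets, or without female L6S1 B and C. Interaction calls, all higher, were 2 with DESeq2 and 3 with no filter. Calls in the gene lists were 6 higher and 7 lower with DESeq2, 5 lower with no filter, 1 and 1 with the title-form term, 1 higher with the first form only, 5 lower with the offsets, and 1 and 0 without female L6S1 B and C. The sex differences within L6S1 of Fbxl17 and Serpinb1b passed with DESeq2, at 0.66 and 0.84.

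Whether replicate letters pair the libraries cannot be decided from so few libraries per group. Deviations of same-letter libraries of the 2 levels correlated at 0.05, 0.08 and 0.09 in males and at 0.23 and 0.02 in females. Those of different-letter libraries ran from -0.11 to 0.03 in males and from -0.3 to 0.24 in females. With a replicate block, level calls were 960 higher and 1025 lower and list calls 5 and 10, Eif3s6-ps1 turned to -0.06, and no member was called by sex or interaction.

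With 1 library left out, level calls ranged from 63 to 1735 higher and from 10 to 2296 lower, sex calls from 1 to 117 and from 6 to 874, interaction calls from 0 to 61 and from 0 to 756, and list calls from 1 to 14 and from 0 to 26. The highest of each came without female L6S1 A, the shallowest library. The sex difference within L6S1 ranged from 0.53 to 0.76 for Fbxl17, 0.69 to 0.88 for Serpinb1b, and -0.06 to 0.45 for Arap3. The interaction ranged from 0.89 to 1.13 for Serpinb1b, -0.05 to 0.67 for Arap3 and -0.04 to 0.31 for Upp1, and the sex difference of Arap3 from -0.07 to 0.31. Upp1 turned in sex difference within L6S1 to -0.04 with the first title form only and -0.03 without female L6S1 B and C, and in interaction to -0.2 and -0.24. Small level differences of genes that were not called turned as well. With 1 library left out, Upp2 ranged from -0.25 to 0.05, Arap2 from -0.42 to 0.01, Skp1a from -0.13 to 0.0, Fer from -0.11 to 0.03 and Eif3s6-ps1 from -0.01 to 0.28. Arap2 was 0.01 with the first form only and 0.03 without female L6S1 B and C. With the offsets, Eif3s6-ps1 was -0.12 and Upp2 0.02.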
